A study of Mus musculus with 12 samples.

Results

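The 9 mouse oral tissue samples exposed to dibenzo[a,l]pyrene (DBP) were set against the 3 samples that received only the vehicle dimethyl sulfoxide (DMSO), so that all 12 samples of the series were used. The members were chosen by their treatment labels: 3 samples received DBP alone, 3 received DBP with an unnamed chemopreventive agent (DBP+agent), and 3 received DBP with one given as BR extract (DBP+BR). The mice were 8 week-old female B6C3F1/J animals on an AIN-93M diet, the oral cavity was treated topically for 5 weeks with 3 doses of DBP per week, each of 24 nmol, and tissue was taken 48 h after the final one. The doses and routes of the 2 added agents are not given in the sources used here, and neither agent was given without DBP, so that each agent's own contribution cannot be told apart from its combination with DBP. Buccal mucosa, floor of the mouth and the soft tissue on the hard palate were combined before DNA extraction, and the labels do not say whether a sample is 1 animal. The p-values of the edgeR, limma and permutation tests therefore measure the spread between these samples, those of the logistic regression do not measure it, and a change in the mix of cell types cannot be told apart from a change within cells. The sample labels were taken as given. In each DMSO and DBP library the count of methylated CpG calls equals that of the study's control or DBP sample of the same number. It was 2555361 in DMSO 1 and 2756772 in DBP 1, for example. The DBP+agent and DBP+BR labels could not be checked in this way. The study's own list of sites marks hypermethylation with + and hypomethylation with -. At all 8 tested CpGs that the study's text singled out, the DBP minus DMSO difference had the sign opposite to that list. The reason was not tested. Every direction below (hypermethylated or hypomethylated, treated minus DMSO) therefore rests on the labels DMSO and DBP. The question was which differences from DMSO were shared by the 3 groups that received DBP.

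DBP is a polycyclic aromatic hydrocarbon that cells metabolize to diol epoxides, which bind covalently to purines and cause tumors in the rodent oral cavity. Methylation of cytosine in CpG dinucleotides is generally low at CpG-rich promoters and high in gene bodies and between genes, and it is copied to the daughter strand by DNMT1 at replication. Enhanced reduced representation bisulfite sequencing (ERRBS) reads the ends of DNA fragments cut by MspI, an enzyme that cleaves at CCGG, and reports at each CpG the share of reads in which the cytosine was protected from bisulfite. A methylation level below is that share in percent, and a methylation difference is in percentage points, treated minus DMSO. Of 4321664 autosomal CpG positions read in any sample, 37156 had at least 10 reads in all 12 samples and were tested. Total CpG calls were 3287367 to 7774032 in the DMSO libraries and 7515975 to 7974299 in the DBP libraries, against 16908728 to 39615620 with DBP+agent and 17712547 to 78889043 with DBP+BR, so that depth moved with the treatment.

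The 60 bases around 7 of the CpGs described below are shown because these CpGs belong to those at which the 3 DBP groups differed from DMSO in the same direction with no overlap of samples, and because they fall into 2 kinds: 4 lie inside an MspI site and 3 do not. They are from the mm9 genome, plus strand, with the measured CpG in capitals. The CpGs at Mri1, Hdac7, Cno and Tead4 lie inside CCGG, and those at Ermap, 2610109H07Rik and Msi2 do not. Their windows are chr8:86781100-86781159, chr15:97655961-97656020, chr5:37139697-37139756, chr6:128178878-128178937, chr4:118863425-118863484, chr4:147486778-147486837 and chr11:88548763-88548822 in the order printed.
Mri1: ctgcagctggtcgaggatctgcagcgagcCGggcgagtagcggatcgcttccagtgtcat
Hdac7: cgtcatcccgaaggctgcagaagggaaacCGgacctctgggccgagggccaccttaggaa
Cno: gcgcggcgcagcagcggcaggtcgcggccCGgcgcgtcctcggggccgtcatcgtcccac
Tead4: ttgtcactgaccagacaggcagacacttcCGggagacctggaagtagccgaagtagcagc
Ermap: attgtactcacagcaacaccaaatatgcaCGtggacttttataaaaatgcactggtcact
2610109H07Rik: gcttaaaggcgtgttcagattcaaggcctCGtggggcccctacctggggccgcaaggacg
Msi2: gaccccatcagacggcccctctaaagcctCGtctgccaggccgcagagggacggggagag

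A CpG of the Mri1 promoter, a CpG inside Hdac7 and a CpG of the Cno exon were less methylated in all 9 treated samples than in every DMSO sample, whereas CpGs upstream of Ermap, in Msi2 and in Tead4 were more methylated in all 9. Logistic regression of methylated and unmethylated reads, with a q-value below 0.01 and a difference of pooled levels over 10 points, called 220 differentially methylated sites (DMS), which is 0.592% of the CpGs tested, with 107 hypermethylated and 113 hypomethylated in the treated samples. At 149 of them (0.401%; 70 hypermethylated and 79 hypomethylated) the mean of each DBP group differed from the DMSO mean by over 10 points in the same direction, and these are called shared DMS. At 34 shared DMS (0.0915%), 17 in each direction, no treated sample reached the DMSO range, with the 9 all above or all below it, and these are called separated DMS. Across all tested CpGs, with no test, 174 (0.468%) showed such a separation. For a value without ties, random labels of 9 against 3 samples would give such a separation in a share of 0.00909 of splits. The share of tested CpGs was not above that, so that separation alone does not mark a CpG out. The logistic regression counts reads as independent and does not see the spread between samples. In edgeR's quasi-likelihood test, which does, 0 of 31497 CpGs (0.0%) had a false discovery rate (FDR) below 0.05, the smallest FDR was 0.934, and 1089 CpGs (3.46%) had an unadjusted p below 0.05. With limma on arcsine square root values, 1 CpG (0.00317%) passed and 1560 had an unadjusted p below 0.05. That CpG lies 12572 bp from the start of the olfactory receptor gene Olfr866, with 94.4%, 84.6% and 90% in the DMSO samples and 100% in all 9 treated samples (FDR 0.0262 by limma). The named DMS below thus passed the read-based test and not the edgeR test across all CpGs. Unadjusted edgeR p-values of the 34 separated DMS ran from 0.000305 to 0.0496, which the choice of CpGs without overlap largely fixes.

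**Figure D1:**
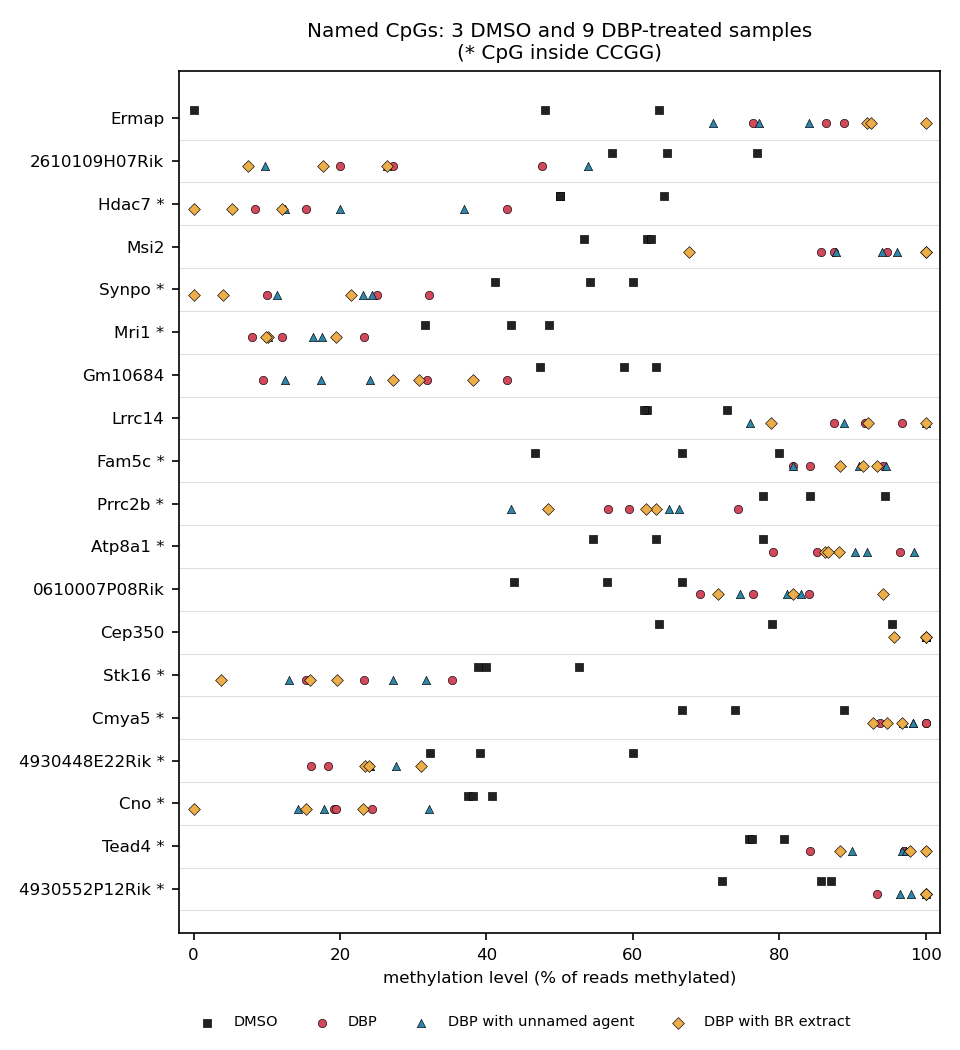
Methylation level (percent, horizontal axis) of the separated DMS with the largest smallest group difference (19 of the 20), in each of the 3 DMSO, 3 DBP, 3 DBP+agent and 3 DBP+BR samples (points), with each row named by its gene and a star where the CpG lies inside CCGG. In each row all 9 treated points lie to the right of the 3 DMSO points or all lie to the left, which is how these CpGs were chosen.

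Among the 20 separated DMS ranked first by the smallest of their 3 group differences, which are the named DMS, 7 lay within 1000 bp of a transcription start, and 6 of these 7 were hypomethylated in the treated samples. All 6, at Mri1, Synpo, Prrc2b, Stk16, 4930448E22Rik and Cno, lie inside CCGG, and the hypermethylated one does not. CpGs inside CCGG read differently from their surroundings, as described below. The CpG at Mri1, which encodes an isomerase of the methionine salvage pathway, lies in an exon 17 bp from the start (chr8:86781129). Its level was 43.3%, 48.5% and 31.6% in the DMSO samples, 8%, 12.1% and 23.3% with DBP, 16.3%, 10.1% and 17.6% with DBP+agent, and 10.2%, 19.5% and 9.82% with DBP+BR. The highest treated sample was therefore below the lowest DMSO sample in each group. The mean fell from 41.1% ± 8.67 (SD, n = 3) to 14.1% ± 5.26 (SD, n = 9). It passed the logistic regression at q = 9.59e-06, and its unadjusted p was 0.00211 in edgeR and 6.56e-05 in limma. The group differences were -26.6 points with DBP, -26.5 with DBP+agent and -28.0 with DBP+BR. The reads behind single values were few in the vehicle arm: 6 of 19 reads gave the 31.6% of DMSO 3, with an exact 95% binomial interval of 12.6% to 56.6%, whereas 23 of 226 reads gave the 10.2% of DBP+BR 1, with an interval of 6.56% to 14.9%. PCR duplicates cannot be told apart in these reads, so that such intervals cover counting error only.

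The CpG in an untranslated exon of Synpo, an actin-associated protein of podocytes and neurons, lies 34 bp from the start and had 41.2%, 54.2% and 60% in the DMSO samples. In the treated samples it ranged from 0% to 32.1% with a median of 21.5%, so that the groups did not overlap. At Stk16, a membrane-bound serine/threonine kinase gene, a CpG 151 bp from the start had 52.6%, 40.0% and 38.9% in the DMSO samples and from 3.75% to 35.3%, median 19.6%, in the treated samples. The gap between the groups was thus smaller at Stk16 than the spread within either of them. The CpG at -147 bp from a Prrc2b start had 94.4%, 77.8% and 84.2% in DMSO and from 43.4% to 74.4%, median 61.9%, after treatment, which gave a mean difference of -25.6 points. At Cno, which encodes a subunit of the BLOC-1 complex of lysosome-related organelle biogenesis, the CpG 192 bp from the start was even across the DMSO samples (37.5%, 40.7% and 38.1%) and lower with DBP (19.2%, 24.3% and 19.4%), DBP+agent (17.7%, 14.3% and 32.2%) and DBP+BR (0%, 15.3% and 23.1%). The 0% was 0 of 30 reads in DBP+BR 1, which allows a level of up to 10%.

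The noncoding RNA gene 4930448E22Rik held a CpG at 494 bp from its start with 39.1%, 60% and 32.3% in the DMSO samples and 16% to 31.1% in the treated samples. Inside the gene 2610109H07Rik, in an intron, a CpG at chr4:147486807 had 57.1%, 64.7% and 76.9% in DMSO, 20%, 27.3% and 47.6% with DBP, 26.4%, 53.8% and 9.76% with DBP+agent, and 7.41%, 17.6% and 26.4% with DBP+BR. Its 3 tested neighbours, 21, 29 and 45 bp away, were also lower in the treated samples, by means of -23.9, -19.7 and -17.7 points, although none of them was called. CpGs this close can be called from the same reads, so that they are not separate evidence. In an intron of Hdac7, a class IIa histone deacetylase, the CpG at chr15:97655990 had 50.0%, 64.3% and 50.0% in DMSO and from 0% to 42.9%, median 12.5%, in the treated samples. Its 2 tested neighbours were nearly unmethylated in every group: one averaged 4.11% in DMSO and 0.327% in the treated samples, and the other was at 0% in both.

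The other 10 of the 20 named DMS were hypermethylated in the treated samples, and 1 of them lay within 1000 bp of a start. That one lay at -838 bp from the start of Ermap, an erythroid membrane protein of the immunoglobulin superfamily (chr4:118863454), and it had the largest mean difference of all CpGs tested, 48.2 points. A CpG near this position of Ermap is also on the study's own list, which was made from the DMSO and DBP samples used here, so that it is not independent evidence. The study lists that CpG as hypomethylated with DBP, which is the opposite direction. Its level was 48.0%, 0% and 63.6% in the DMSO samples, 86.4%, 88.9% and 76.5% with DBP, 77.2%, 71% and 84.0% with DBP+agent, and 92.0%, 100% and 92.6% with DBP+BR. The 0% in DMSO 2 was 0 of 10 reads, which allows a level of up to 30%, and without DMSO 2 this CpG was no longer called. An exonic CpG of Msi2, a Musashi RNA-binding protein of stem cells, at chr11:88548792 had 61.9%, 62.5% and 53.3% in DMSO and from 67.6% to 100%, median 94.0%, in the treated samples. All 4 of its tested neighbours were higher too, by means of 7.43 to 8.41 points, and none was called. In Tead4, a TEAD transcription factor that partners with YAP, an intronic CpG at chr6:128178907 had 75.9%, 76.3% and 80.6% in DMSO, 84.2%, 100% and 97.1% with DBP, 89.9%, 96.7% and 97.4% with DBP+agent, and 100%, 97.9% and 88.3% with DBP+BR. Its group differences of 16.1, 17.1 and 17.8 points were close to each other.

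An intronic CpG of Cep350, a centrosomal protein, was fully methylated in 8 of 9 treated samples and at 95.7% in DBP+BR 1, against 95.5%, 78.9% and 63.6% in DMSO. DMSO 1 lay just under the lowest treated sample there, and the mean difference rested on DMSO 2 and DMSO 3. At Atp8a1, a phospholipid flippase, an intronic CpG had 77.8%, 63.2% and 54.5% in DMSO and from 79.2% to 98.4%, median 88.2%, in the treated samples, and its 2 tested neighbours were higher by 12.4 and 11.0 points without being called. Of the 20 named DMS, 13 had tested CpGs within 100 bp, and of these 37 neighbours 14 differed the same way by over 5 points, 2 differed the other way by over 5 points and 0 were called by the logistic regression. Neighbours can share reads with the named CpG, so that a difference in the same direction is not separate evidence. The smallest group difference at the 20 named DMS was 16.1 points, their unadjusted edgeR p ran from 0.000305 to 0.0422, and single DMSO values rested on 10 to 64 reads.

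Of the other 14 separated DMS, 5 lay within 1000 bp of a start, 4 of them lower in the treated samples. The ubiquitin ligase gene Stub1, 94 bp from its start, had 30%, 33.3% and 30.4% in DMSO and 4.21% to 26.3% in the treated samples. The CpG at -98 bp from the start of Pik3r2, a regulatory subunit of phosphoinositide 3-kinase, had 50.9%, 60% and 54.1% in DMSO and 31% to 49.3% after treatment. At Tmem8b, 186 bp from the start, the levels were 18.2%, 17.2% and 22.2% in DMSO and 0% to 9.38% in the treated samples. At Tbc1d4, a Rab GTPase-activating protein of GLUT4 traffic that is on the study's list too, the CpG 64 bp from the start had 76.3%, 70.3% and 83.3% in DMSO and 24.4% to 66.7% in the treated samples. The study lists the Tbc1d4 CpG as hypermethylated with DBP, which is the opposite direction. At all 4 the 9 treated samples lay below the 3 DMSO samples, and these CpGs were singled out after their values were seen. Those at Stub1, Pik3r2 and Tbc1d4 lie inside CCGG, and that at Tmem8b does not. The tested neighbours of the CpGs at Stub1, Pik3r2 and Tbc1d4 differed by means of only -4.29 to 1.53 points. The fifth, near the start of another gene and at -34931 bp from the nearest coding start, that of Commd8, was higher in the treated samples (14.3% to 39.9%) than in DMSO (13.8%, 10.9% and 9.38%). It also lies inside CCGG.

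The shared DMS lay farther from starts than the tested CpGs. Within 1000 bp of a start were 28.9% of the 149 shared DMS and 56.5% of the CpGs tested, with 39.2% of the hypomethylated and 17.1% of the hypermethylated ones. The rest comprised 26 in exons, 43 in introns and 37 between genes. Their median DMSO level was 62.2%, against 14.4% for all CpGs tested, and since a CpG near 0% cannot be hypomethylated by over 10 points, these shares describe where such calls could be made as well as where they were. The 149 lay in 144 separate places, and 8 were within 100 bp of another.

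Many shared DMS lay inside the MspI site itself. Of the CpGs tested, 11760 (31.7%) were the CpG of a CCGG, against 89 of the 220 DMS (40.5%), 65 of the 149 shared DMS (43.6%), 19 of the 34 separated DMS (55.9%) and 12 of the 20 named DMS, among them Mri1, Hdac7, Synpo, Prrc2b, Atp8a1, Stk16, 4930448E22Rik, Cno and Tead4. Of tested CpGs averaging over 10%, 11739 lay inside CCGG and 7483 outside. At such levels there were 89 and 113 DMS, 65 and 73 shared DMS, and 19 and 13 separated DMS. Among CpGs averaging over 10%, DMS and shared DMS thus lay inside CCGG less often than the CpGs tested. Nearly all tested CpGs inside CCGG averaged over 10%, also those among unmethylated neighbours. This comparison therefore cannot decide whether the calls hold an excess at the cut site. CpGs inside CCGG read differently from their surroundings. Among CpGs with at least 3 tested neighbours within 50 bp that all averaged under 5%, the 2101 inside CCGG averaged 23.3% to 31.8% in the 12 libraries, whereas the 2660 outside averaged 0.518% to 0.767%. A level over 10% was found at 2095 of the former and at 10 of the latter. At Cno, whose CpG averaged 38.8% in DMSO, the 9 tested neighbours within 100 bp averaged at most 0.833% in DMSO and at most 1.13% in the treated samples. The 2101 CpGs averaged 26.9% ± 0.455 in DMSO (SD, n = 3) and 25.9% ± 2.56 in the treated samples (SD, n = 9; exact permutation test, two-sided p = 0.482), with DBP+agent 1 highest at 31.8%. With the CpGs inside CCGG left out, 130 DMS, 84 shared DMS and 15 separated DMS remained to be called, of which 10 were hypermethylated and 5 hypomethylated, whereas 7 of the 19 separated ones inside CCGG were hypermethylated and 12 hypomethylated. Whether the reading of the cut site had a part in the differences between groups was not tested.

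**Figure D2:**
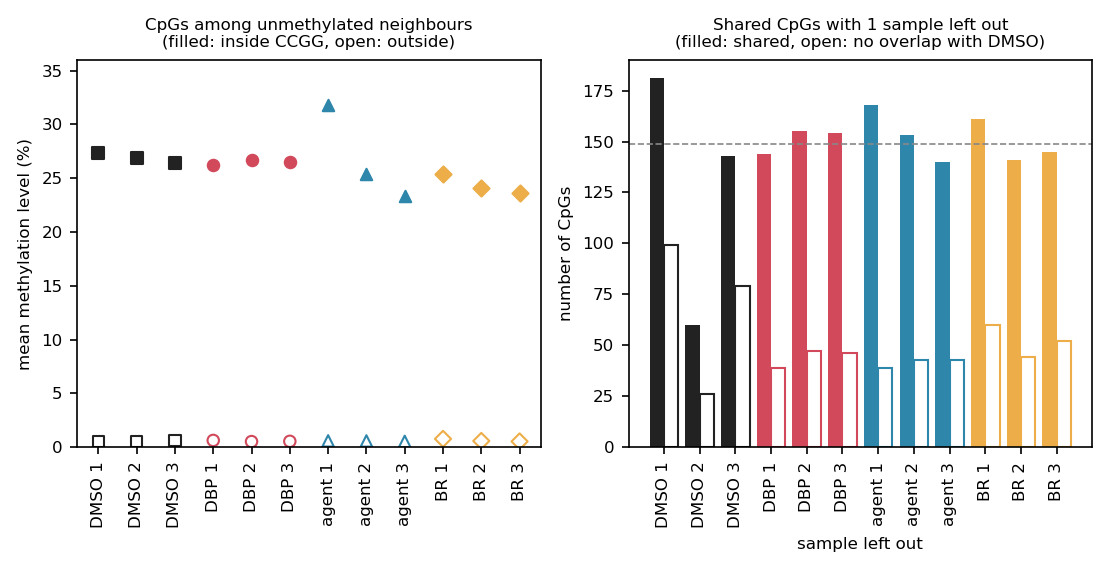
Left, mean methylation level (percent, vertical axis) in each of the 12 libraries of CpGs whose tested neighbours within 50 bp all averaged under 5%, inside CCGG (filled) and outside (open): the filled points lie between 23.3% and 31.8% and the open points below 1%. Right, number of shared DMS (filled bars) and of separated DMS (open bars) when the sample on the horizontal axis was left out, with a dashed line at the 149 shared DMS of all 12 samples; the bar without DMSO 2 is lowest at 60.

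The counts depended on which DMSO samples were used. Without DMSO 2 the DMS fell from 220 to 75 and the shared DMS from 149 to 60, whereas leaving out any treated sample left between 220 and 289 DMS and between 140 and 168 shared DMS. Among the shared DMS, DMSO 2 was the vehicle sample farthest from the treated mean at 73, DMSO 3 at 50 and DMSO 1 at 26. Without DMSO 1 the separated DMS rose in number to 99 and without DMSO 3 to 79, with fewer vehicle samples to clear, and without DBP+BR 1 to 60 and DBP+BR 3 to 52. In all 12 fits that left out 1 sample, 8 of the 149 shared DMS were called: those at 2610109H07Rik, Mri1, Tead4, Tmem8b, Spata13, Pdzd7, Cyp26b1 and Ttyh3, of which the first 4 were also separated.

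The sizes of the methylation differences in the 3 DBP groups, which share the 3 DMSO samples, were set side by side. At the 149 shared DMS the median absolute difference was 17.3 points with DBP, 19.6 with DBP+agent and 20.4 with DBP+BR, where all tested CpGs had 1.82, 1.85 and 2.04 points. Shared DMS were chosen for a difference over 10 points in each group, so that the contrast with all tested CpGs follows from the choice. The pooled call that chose them also counts every read, so that deeper libraries weigh more in it. Tested group by group over the same CpGs, the logistic regression called 10 CpGs (0.0269%) with DBP, 588 (1.58%) with DBP+agent and 1081 (2.91%) with DBP+BR. Of the 149 shared DMS, 5 were called with DBP, 107 with DBP+agent and 125 with DBP+BR. Median reads at the tested CpGs were 29, 30 and 30 in the DBP libraries. They were 130, 96 and 72 with DBP+agent and 39, 76 and 107 with DBP+BR. DBP had the fewest calls and the fewest reads, whereas DBP+BR had more calls than DBP+agent without being the deeper group at these CpGs. The relation of calls to depth was not tested by itself, although with 10 reads drawn per CpG and sample only the Ermap CpG was called in the pooled comparison. Only 3 CpGs were called in all 3 groups separately, at 4930448E22Rik, Nudt22 and Spata13. The Spata13 CpG, there named C1qtnf9, and a CpG near that of Nudt22 are also on the study's list, both with the opposite sign. That list was made from the DMSO and DBP samples used here, so that these calls are not independent evidence. At Nudt22, a gene of the Nudix hydrolase family, the CpG 728 bp from the start had 91.4%, 89.5% and 95.2% in DMSO, 55.6%, 71.1% and 64.6% with DBP, 82.9%, 49.3% and 66.3% with DBP+agent, and 91.7%, 73.5% and 66.1% with DBP+BR. DBP+BR 1 lay among the DMSO samples there. At Spata13, a guanine nucleotide exchange factor gene, the intronic CpG had 51.1%, 52.5% and 40.0% in DMSO, and the treated samples were at 76.7% to 97.1% except DBP+agent 3 at 36.8% and DBP+BR 1 at 46.2%.

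Differences among the 3 DBP groups were tested at every CpG. By edgeR, 2 of 31497 CpGs (0.00635%) differed at FDR below 0.05, and neither was a shared DMS. At a CpG at -83452 bp from the start of Bcl9, a coactivator of beta-catenin (chr3:97116221), DBP and DBP+BR were at 0% in all 6 samples and DBP+agent at 17.2%, 20.3% and 23%, with DMSO at 11.9%, 5.41% and 9.09% (edgeR FDR 0.0416). At a CpG 23 bp from the start of 5430437P03Rik (chr8:73920777), DBP+agent was at 4.55%, 0% and 0%, DBP at 76.5%, 60.5% and 53.7%, DBP+BR at 36.8%, 70.1% and 12.9%, and DMSO at 67%, 62.5% and 43.9% (edgeR FDR 0.00919). By the logistic regression, 6640 CpGs (17.9%) differed among the 3 groups at q below 0.01, 26 of them among the 149 shared DMS and 5 among the 34 separated ones. The shared DMS that did not pass that test were not thereby shown to be equal among the DBP groups.

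Windows of 1000 bp with at least 20 reads in all 12 samples numbered 27834. Each window sums every CpG position that a library read in it, so that a window can compare different CpGs between samples. The logistic regression called 688 (2.47%), with 282 hypermethylated and 406 hypomethylated, of which 247 (0.887%; 106 and 141) were shared by the 3 DBP groups and 57 (0.205%; 23 and 34) had all 9 treated samples on one side. Without any test, 363 windows (1.3%) showed such a separation, beside the share of 0.00909 that random labels would give for values without ties. By edgeR, 0 of 27831 windows (0.0%) passed FDR below 0.05, with 1106 at an unadjusted p below 0.05, and by limma 1 window (0.00359%) passed and 2167 had an unadjusted p below 0.05. The window that passed by limma covers an untranslated exon of Utp6, a ribosome biogenesis gene (chr11:79775001-79776000), and was at 0% in all 3 DMSO samples and at 2.76% to 7.50% in the treated samples. Its DMSO levels rest on 65, 21 and 23 reads and the treated ones on 50 to 1118, so that 0% does not exclude a low level. The window held 0 of the CpGs tested singly. The 10 separated windows with the largest smallest group difference held 7 hypomethylated and 3 hypermethylated ones, with unadjusted edgeR p from 0.00136 to 0.0152. Over CpGs read in all 12 samples, only 5 of these 10 windows could be measured, and the logistic regression called those 5.

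**Figure D3:**
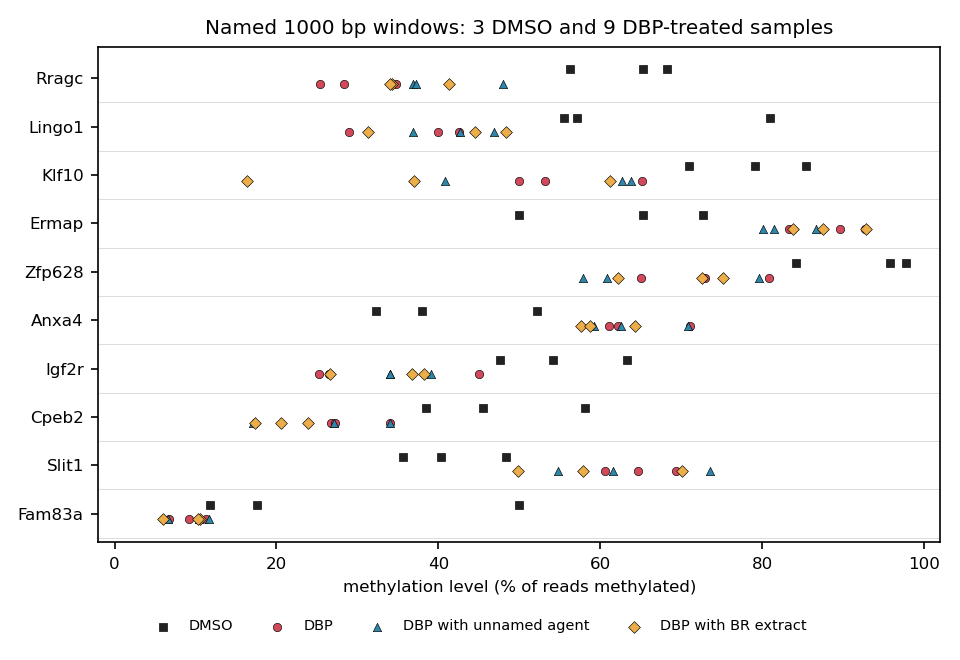
Methylation level (percent, horizontal axis) of the 10 named windows of 1000 bp in each of the 12 samples, with groups by colour and each row named by the gene it lies in or nearest to. The 9 treated points lie to the left of the 3 DMSO points in 7 rows and to the right in 3, which is how the windows were chosen.

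In an intron of Igf2r, the imprinted insulin-like growth factor 2 receptor, a window that also overlaps its antisense RNA gene Airn (chr17:12935001-12936000) had 47.6%, 54.2% and 63.3% in DMSO, 25.3%, 26.5% and 45% with DBP, 34.0%, 39.1% and 34.0% with DBP+agent, and 36.7%, 26.6% and 38.2% with DBP+BR. Averages were 55.0% ± 7.92 (SD, n = 3) for DMSO against 33.9% ± 6.70 (SD, n = 9) for the treated samples, and no treated sample was above 45%. The Igf2r window held 0 of the CpGs tested singly, and its reads per sample ran from 24 to 359, so that the samples may not compare the same CpGs. A window 320975 bp from Rragc, a Rag GTPase gene of the mTORC1 pathway, had 56.2%, 65.2% and 68.2% in DMSO and from 25.4% to 48.0%, median 34.8%, after treatment. The window nearest to Klf10, a TGF-beta-inducible zinc finger factor, had 70.9%, 85.4% and 79.2% in DMSO and from 16.4% to 65.1% in the treated samples, with DBP+BR 1 lowest. Both windows had every treated sample below every DMSO sample, and both are far from the genes that name them. The window upstream of Ermap that contains the CpG described above was higher in the treated samples (80.1% to 92.9%, median 86.7%) than in DMSO (65.3%, 50.0% and 72.7%). Near Anxa4, a calcium-binding annexin, a window had 37.9%, 52.2% and 32.3% in DMSO and 57.6% to 71.1% after treatment. In Slit1, an axon guidance ligand, an intronic window had 35.6%, 40.4% and 48.3% in DMSO and 49.8% to 73.5% after treatment. An intronic CpG of Slit1 at a similar distance from the start is on the study's list as hypomethylated with DBP, the opposite direction. That list was made from the DMSO and DBP samples used here, so that the Slit1 window is not independent evidence. Of the 149 shared DMS, 15 lay in a shared window.

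Averaged over the CpGs tested, the methylation level did not separate the groups. The mean was 33.4%, 33.1% and 32.9% in the DMSO samples and 32.6% to 34.4%, median 33.1%, in the treated samples, with group means of 33.1% ± 0.252 (SD, n = 3) and 33.2% ± 0.546 (SD, n = 9; difference 0.105 points, exact permutation test, two-sided p = 0.900). CpGs within 1000 bp of a start averaged 11.8% in both groups (p = 0.700 by the same exact test), and CpGs farther away 60.8% and 61.1% (p = 0.473, exact). Windows averaged 38.8% and 38.6% (p = 0.636, exact). The percentage of all autosomal CpG calls that were methylated, which does not compare the same CpGs, was 32.4%, 40.4% and 40.9% in DMSO and 28.8% to 38.9%, median 33.7%, in the treated samples. Its mean difference of -4.28 points had an exact permutation p of 0.118, two-sided, where the smallest p that 9 against 3 samples allow is 0.00909, and an adjusted p of 0.512 over the 13 such measures compared. This percentage moved with depth: over the 12 samples its correlation with the log10 number of calls was r = -0.761 (permutation p = 0.00372, adjusted 0.00744 over 2 relations) and rho = -0.797 (permutation p = 0.00306, adjusted 0.00612). It was r = -0.543 without DBP+BR 1 and DMSO 3, and -0.686 within the 9 treated samples. The mean over the CpGs tested had r = 0.214 with depth (permutation p = 0.512) and rho = -0.0210 (permutation p = 0.956), and r = 0.144 without the same 2 samples.

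**Figure D4:**
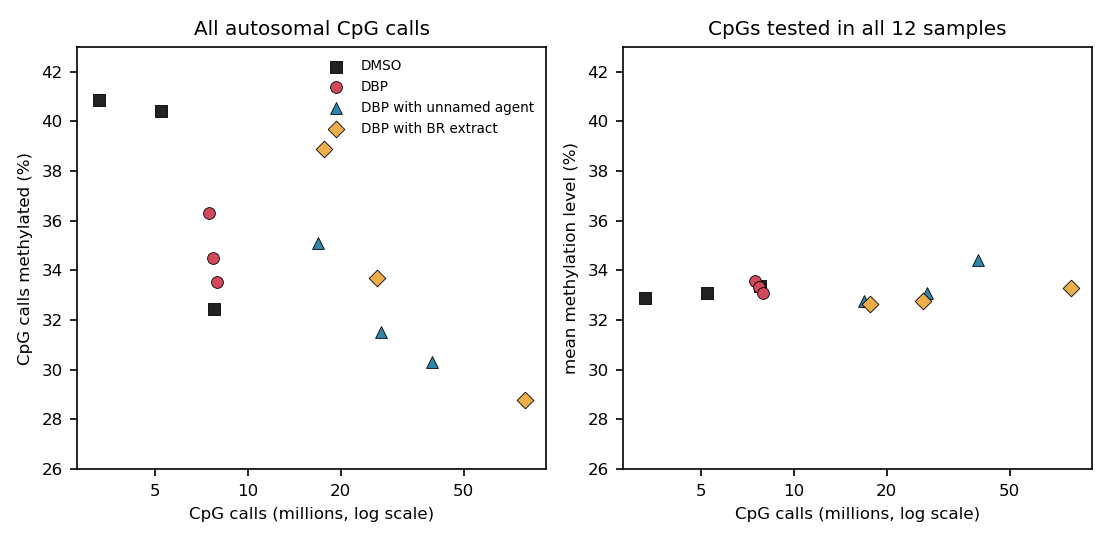
Percentage of autosomal CpG calls methylated (left) and mean methylation level over the CpGs tested (right) in each of the 12 samples (points, by group), against the number of CpG calls on a log axis. The percentage of calls is lower in the deeper libraries (r = -0.761), whereas the mean over the CpGs tested stays between 32.6% and 34.4%; both vertical axes are cut to the same range.

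The spread of single levels was wider than read counts alone would give. At the tested CpGs averaging 30% to 70%, a library's root mean square deviation from the mean of the others was 11.6 points for DMSO 1, 15.3 for DMSO 2 and 15.6 for DMSO 3. It was 12.3 to 14.2 points for DBP, 12.0 to 17.7 for DBP+agent and 14.2 to 20.6 for DBP+BR. DBP+BR 1, the most deeply sequenced library, deviated most. These deviations correspond to 5.52 effective reads in DBP+BR 1, 7.50 in DBP+agent 3 and 9.60 to 17.3 in the DMSO libraries, against median read counts of 39, 69 and 16 to 31. The deviations hold differences between animals and treatments as well as counting error, and these were not told apart. DBP+BR 1 also had only 2.80% of its CpG calls at the tested CpGs, where the others had 13.6% to 20.6%, and it had 5.38% of the intermediate CpGs at exactly 0% or 100%. Without DBP+BR 1 there were 243 DMS, 161 shared DMS and 60 separated DMS, and 478 windows were called, 186 of them shared.

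**Figure D5:**
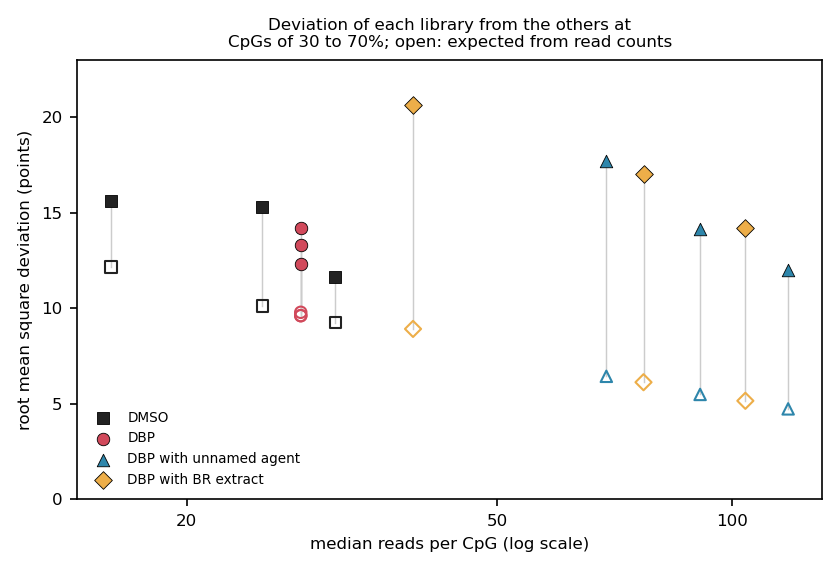
Root mean square deviation of each library from the others (points, vertical axis, filled) and the deviation its read counts would give (open), at CpGs averaging 30% to 70%, against the library's median reads per CpG (horizontal log axis). A line joins both values of a library; every filled point lies above its open one, and DBP+BR 1 is highest at 20.6 points.

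Promoter CpGs of 11 lists of genes related to the exposure, the tissue and the methylation machinery were examined, with 40 of their 196 genes having a tested CpG within 1000 bp of a start. Of the 211 CpGs, 0 were called by the logistic regression, by edgeR at FDR below 0.05 or by limma, and 5 had an unadjusted edgeR p below 0.05. Of all 20981 promoter CpGs tested, 62 (0.296%) were called and 655 (4.15% of those edgeR tested) had such a p, so that no calls among 211 is near the background. For the enzymes that form DBP adducts and their regulators (3 of 14 genes, 17 CpGs) the mean level was 2.89% to 4.15% in DMSO and 2.11% to 4.18% in the treated samples. Phase II enzymes and the NRF2 pathway (3 of 19 genes, 12 CpGs) had 4.08% to 8.64% and 3.95% to 12.2%, and genes for repair and bypass of bulky adducts (7 of 22 genes, 24 CpGs) had 23.4% to 24.6% and 19.8% to 25.1%. In each of these lists the treated range overlapped the DMSO range. Tumor suppressors silenced in oral cancer (9 of 28 genes, 49 CpGs) had 9.94% to 12.8% in DMSO and 8.77% to 13.2% in the treated samples. Writers and erasers of methylation (3 of 9 genes, 16 CpGs) had 11.25% to 16.6% and 12.5% to 17.8%, and imprinted genes (6 of 20 genes, 43 CpGs) had 19.7% to 28.9% and 21.0% to 39.1%. These ranges overlapped as well.

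Cell type markers were covered at few promoters, so that the tissue label was examined only in part. Squamous epithelium genes (4 of 24 genes, 14 CpGs) had 37.7% to 41.8% in DMSO and 28.8% to 45.6% in the treated samples, and skeletal muscle (1 of 19 genes, 14 CpGs) had 8.66% to 13.6% and 7.30% to 18.6%. Immune cells (1 of 18 genes, 9 CpGs) had 29.6% to 40.0% and 27.2% to 46.7%. Fibroblasts and endothelium (2 of 14 genes, 8 CpGs) had 13.1% to 14.6% and 12.6% to 18.1%, and glands and fat (1 of 9 genes, 5 CpGs) had 4% to 10% and 4.26% to 9.10%. An unadjusted edgeR p below 0.05 was found at 2 CpGs of the immune list, at 1 each of the muscle, the fibroblast and endothelium and the tumor suppressor lists, and at 0 of the others, too few to set against the share over all promoter CpGs. No list had its treated samples all on one side of its DMSO samples, and the part of cell composition in the differences above was not tested.

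Of 10 CpGs in 9 genes that the study's text had singled out from the DMSO and DBP samples used here, 8 were tested and 2 were shared DMS, 1 of them separated, which is not independent evidence. At all 8 the DBP minus DMSO difference had the sign opposite to the study's list, and the reason was not tested. At Fgf3, a fibroblast growth factor of embryonic development, the CpG was at 55.6%, 33.3% and 31.2% in DMSO, 87.5%, 70.0% and 68.8% with DBP, 51%, 48.8% and 29.3% with DBP+agent, and 88.2%, 64.4% and 71.3% with DBP+BR. The study lists this CpG as hypomethylated with DBP, whereas the DBP mean here was above the DMSO mean by 35.4 points. DBP+agent overlapped DMSO there, and the pooled comparison did not pass the logistic regression (q = 0.109).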

How the data were processed

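ERRBS libraries of 12 mouse oral tissue samples were used as deposited: per the labels and the study's methods, the authors trimmed reads with Trim Galore 0.3.3, aligned them to mm9 with Bismark 0.10.1 and wrote, for each cytosine of a CpG, the deposited percent methylation and the counts of methylated and unmethylated reads. The 2 count columns were used, and the levels computed from them. Each cytosine needed at least 10 reads and was left out above the library's 99.9 percentile of coverage, both strands of a CpG were then summed, and only autosomal CpGs with values in all 12 samples were kept (windows of 1000 bp: 20 reads). The authors scaled coverage between samples; here this was an alternative only, since scaled reads count as evidence that was not sequenced.

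The 9 treated samples were compared with 3 DMSO samples by a likelihood ratio test of a logistic regression (q below 0.01 and a pooled difference over 10 points), with the edgeR 4.0.16 quasi-likelihood test (one term per sample, FDR below 0.05) and limma 3.58.1 in R 4.3.3, and for single values by exact permutation tests, two-sided, with Benjamini-Hochberg adjustment. edgeR and limma used the 31497 CpGs that were neither fully methylated nor fully unmethylated in all samples. Other steps used Python 3.11.15, NumPy 2.4.6, pandas 2.3.3 and SciPy 1.17.1, and were tested on simulated data. Genes are from GENCODE on mm9, and a CpG takes the symbol of the gene it lies in or of the nearest start. The members, gene lists and tests were chosen with earlier results of these data known. Named DMS are the 20 separated DMS, and the 10 separated windows, with the largest smallest group difference (the smallest of the 3 group differences in size), and shared DMS that were not separated are not named by this rule even where their differences were larger. The values of 1 of the 20 are not reported here.

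Replicate numbers were checked for pairing: over the 18 pairs of samples with the same number the mean correlation of deviations from the group means was 0.00213 (from -0.0189 to 0.0220), with 0 pairs over 0.1, so that the numbers did not pair the samples. Alternatives were other read minimums, scaled coverage, other tests and thresholds, a replicate block, leaving out each sample and, chosen after seeing the data, leaving out CpGs inside CCGG and differences of mean percentages.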

Additional observations from a re-analysis of the deposited data

Results flagged for a closer look

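In 48 values examined over the 9 treated samples, 9 had a single sample far from the other 8, 5 of them in DBP+BR 1 and 3 in DBP+agent 1, and chance gives such a sample in about 1 in 20 groups. DBP+BR 1 had 78889043 CpG calls (next 39615620), 2.80% of its calls at the CpGs tested (next 13.6%), 5.38% of intermediate CpGs at exactly 0% or 100% (next 1.29%), a mean of 0.767% at CpGs outside CCGG with unmethylated neighbours (next 0.626%), and 95.7% at the Cep350 CpG where the others had 100%. DBP+agent 1 had the highest mean over CpGs within 1000 bp of a start, 12.9% (next 11.9%), over CpGs inside CCGG, 62.7% (next 59.4%), and over those inside CCGG with unmethylated neighbours, 31.8% (next 26.7%). At the Msi2 CpG, DBP+BR 2 was at 67.6% (next 85.7%).

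The 3 DBP groups differed from each other by a test of that difference at the CpGs of Bcl9 (edgeR FDR 0.0416) and 5430437P03Rik (edgeR FDR 0.00919). By the logistic regression, which does not see the spread between samples, they differed at the named CpGs of Ermap (q = 0.000611) and Hdac7 (q = 0.00599) and in the named windows of Rragc (q = 0.00478), Klf10 (q = 9.96e-21), Cpeb2 (q = 0.000297) and Fam83a (q = 0.00943). Unadjusted edgeR p-values for the difference among the 3 groups were 0.104 at the Ermap CpG, 0.227 at the Hdac7 CpG and 0.303, 0.160, 0.412 and 0.957 in these windows in the same order.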

How the results depend on the processing

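Counts are given as DMS, shared DMS and separated DMS, against 220, 149 and 34. They were 363, 264 and 64 with at least 5 reads; 68, 42 and 7 with 20 reads; 2121, 797 and 103 with scaled coverage; 597, 307 and 65 at q below 0.05; 47, 9 and 6 for differences over 25 points; 130, 84 and 15 without CpGs inside CCGG (chosen after seeing the data); and 1, 1 and 1 with 10 reads drawn per CpG. An F test with overdispersion per CpG called 0, 0 and 0, as edgeR did, with 1 CpG by limma. Leaving out 1 sample gave 75 (without DMSO 2) to 289 DMS, 60 (without DMSO 2) to 181 shared DMS, 26 to 99 separated DMS (99 without DMSO 1, 79 without DMSO 3, 60 without DBP+BR 1, 52 without DBP+BR 3) and 0 by edgeR. Windows called and shared, against 688 and 247, were 1040 and 456 with 10 reads, 183 and 54 with 50 reads, 408 and 133 over CpGs read in all samples, 417 and 154 without CpGs inside CCGG, 1206 and 736 for differences over 5 points, and 0 and 0 with the F test and with edgeR; leaving out 1 sample gave 365 (without DMSO 2) to 976 and 182 to 510 (without DMSO 1). The difference in the percentage of calls methylated ranged from -7.01 (without DMSO 1, exact p = 0.0364) to -2.79 points (without DMSO 3), and that of the mean over CpGs tested reversed to -0.0122 without DMSO 3 and -0.0465 without DBP+agent 1, up to 0.238 without DMSO 1. With a replicate block there were 243, 165 and 36 DMS, 629 and 233 windows, and 0 CpGs by edgeR. The causes of these changes were not tested. Of 177 alternative values 127 kept their direction and side of the threshold or stayed within 1.5 times; of 667 values for single named CpGs or windows 553 did, 114 lost the call and 0 reversed. A level of 0 of 10 reads allows up to 30%.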
